A study of Mus musculus with 4 samples.

Results

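The fatty acid binding proteins are small cytosolic proteins that hold a fatty acid or another lipid inside a barrel of beta strands and carry it between membranes, lipid droplets, mitochondria and the nucleus. Each member is known by the tissue in which it is abundant. Fabp1 (liver type), Fabp2 (intestinal type) and Fabp6 (the ileal bile acid binding protein) are products of absorptive enterocytes, the villus cells that take up dietary fat and bile acids. Fabp4 belongs to fat cells, macrophages and capillary endothelium, Fabp5 to epidermis, macrophages and endothelium, Fabp3 to heart and skeletal muscle, and Fabp7 to glia. Several of these genes are targets of the peroxisome proliferator-activated receptors (PPARs), nuclear receptors that fatty acids activate.

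Members were all probe sets that the platform annotation gives to Fabp1, Fabp2, Fabp3, Fabp4, Fabp5, Fabp6 or Fabp7, whatever their values. This gave 13 probe sets for 7 genes among 45037 probe sets that are not controls: 4 for Fabp4, 2 each for Fabp1, Fabp3 and Fabp5, and 1 each for Fabp2, Fabp6 and Fabp7. They were measured on 4 one-colour arrays, 2 from Paneth cells of Atg16-hypomorph mice and 2 from Paneth cells of wildtype mice. Paneth cells secrete antimicrobial proteins at the crypt base of the small intestine, and here they were cut from tissue by laser capture. Both groups had a mixed C57BL/6 and 129ola background, and the hypomorph carries an allele with reduced function of Atg16l1, which is needed to form autophagosomes. The age and sex of the mice, the part of the small intestine, the nature of the allele and the number of animals behind each array are not stated in the labels used here. The p-values therefore measure how far these samples scatter, and that scatter may be technical.

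Values are the deposited linear intensities. Differences are given as log2(intensity + 32) in hypomorph minus wildtype, a scale that understates changes of dim probe sets, and intensities of different probe sets cannot be ranked against each other. A probe set was tested in limma if its mean log2 value reached the median of all probe sets, which corresponds to an intensity of 47.7, and it was called at a Benjamini-Hochberg adjusted p under 0.05. Atg16l1 read 966 and 995 in hypomorph against 1335 and 1183 in wildtype and was not called (log2 difference -0.35, adjusted p = 0.102). Xist, an RNA of the inactive X chromosome of female cells, read 4414 and 4510 against 18 and 25.6, a gap between the groups in a gene that depends on sex, and genotype and sex cannot be told apart. The Paneth cell label could be checked on 14 tested markers. Lyz1 (14561 and 15097 against 15481 and 16021) and Mmp7 (8463 and 9486 against 9063 and 9314) were bright on all 4 arrays. In this list 2 of the 14 rose, Mptx1 by 0.83 and Reg3g by 0.26, and 0 fell (median -0.02). Among 11577 genes, each by its brightest probe set, 2.53% rose and 1.7% fell. Before adjustment, limma gave p below 0.05 for 3 markers on the upper side, with Nupr1 (0.2) added. On the other side were 2 markers, Ang4 (-0.14) and Itln1 (-0.1). Reg3g kept its call only when hypomorph replicate 1 was the array left out.

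Promoters are shown for the 3 enterocyte members, because Fabp1 rose while Fabp2 and Fabp6 were not called. The RefSeq promoter table (GRCm38.p6) held 5 of the 7 genes, without Fabp4 and Fabp5. The lines below give the 120 bases before the annotated start, 5′ to 3′ on the coding strand, at chr6:71199759-71199878 (plus strand) for Fabp1, chr3:122894952-122895071 (plus strand) for Fabp2 and chr11:43601563-43601682 (minus strand) for Fabp6. Capitals mark matches, on either strand, to the nuclear receptor core motif AGGTCA, to a spaced pair (AGGNCA, 1 base of any kind, then AGGNCA again, the arrangement that PPARs and HNF4 bind), to the TATA box TATAAA and to the HNF1 core GTTAAT.
Fabp1: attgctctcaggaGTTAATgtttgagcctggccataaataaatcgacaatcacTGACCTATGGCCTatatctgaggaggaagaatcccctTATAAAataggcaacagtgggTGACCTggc
Fabp2: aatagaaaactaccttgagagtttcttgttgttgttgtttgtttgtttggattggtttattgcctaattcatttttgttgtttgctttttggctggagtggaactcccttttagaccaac
Fabp6: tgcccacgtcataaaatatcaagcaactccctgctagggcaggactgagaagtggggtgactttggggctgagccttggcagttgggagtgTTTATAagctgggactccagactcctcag

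In the Fabp1 window the spaced pair lies at -67 to -55 relative to the start and reads TGACCTATGGCCT on the coding strand. The same window holds a further core motif at -9 to -4, a TATA box at -30 to -25 and an HNF1 core at -107 to -102. The spaced pair occurs in 0.381% of 32851 promoter windows of 300 bases, the core motif in 16.3%, the TATA box in 13.6% and the HNF1 core in 7.1%. The core motif lies inside the spaced pair, so those matches overlap. The Fabp6 window holds the TATA letters on the opposite strand at -29 to -24, and none of the 4 motifs is in the Fabp2 window. These matches describe letters in the sequence and show no binding.

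Of the 13 probe sets, 8 passed the brightness filter, and each of the 8 was above 47.7 on all 4 arrays, with a lowest reading of 62.1. Of these, 4 were called higher in hypomorph, both probe sets of Fabp1 and the 2 brighter ones of Fabp4, against 2.04% of the 22519 probe sets tested. Among the same 8, 0 were called lower, against 1.67% of all tested, and at an unadjusted p under 0.05 in limma 6 were higher and 0 lower, against 9.03% and 11.5% of all tested. Both hypomorph arrays lay above both wildtype arrays for 10 of the 13, and for 0 of 13 they lay below. Over all probe sets the shares are 21.6% and 23.4%.

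**Figure D1:**
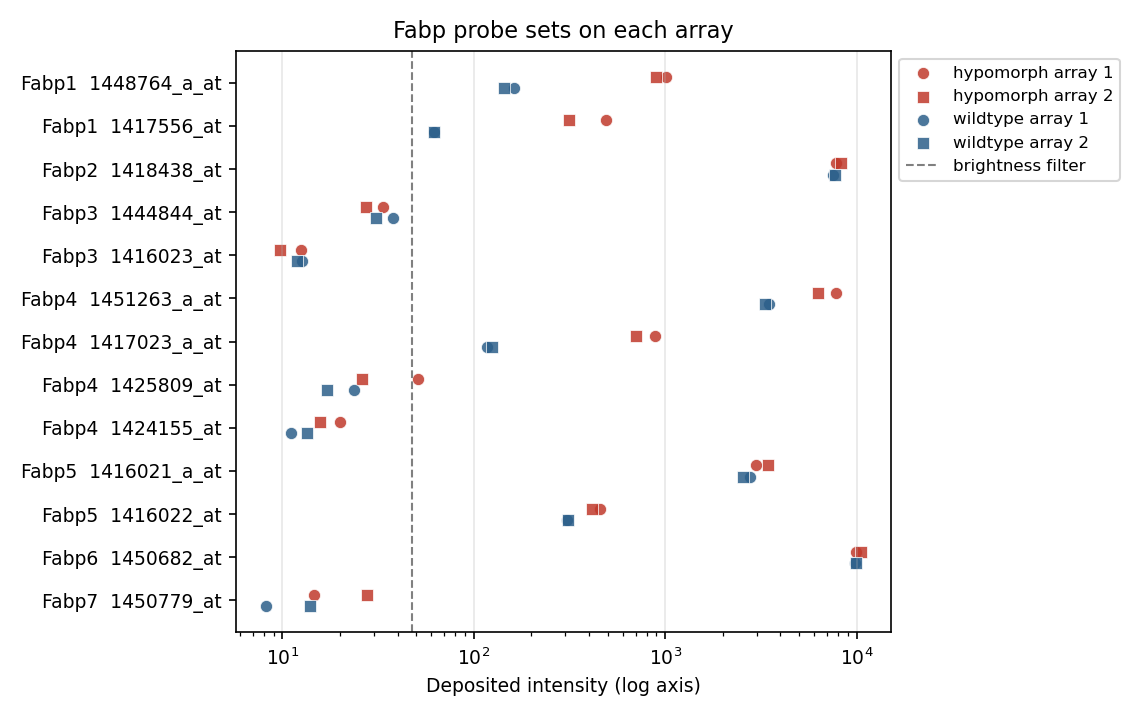
Deposited intensity (log axis) of each Fabp probe set on each of the 4 arrays, with the brightness filter at 47.7 as a dashed line. Red points (hypomorph) stand clear of blue points (wildtype) for Fabp1 and for the 2 brighter Fabp4 probe sets, whereas those of Fabp2 and Fabp6 nearly coincide.

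Fabp1, which binds fatty acids and bile acids in liver and small intestine, rose the most among the enterocyte members. Its brighter probe set (1448764_a_at) read 1005 and 892 in hypomorph samples and 162 and 144 in wildtype samples. Both hypomorph arrays were far above both wildtype arrays, and the means were 948 ± 79.7 and 153 ± 12.9 (SD, n = 2 each), a 6.2-fold ratio. The log2 difference was 2.41 (SE 0.14, 95% interval 2.1 to 2.72, adjusted p = 1.04e-05 in limma), the 12th largest rise among 22519 probe sets. In bulk RNA, more cells that express the gene and more of its RNA per cell cannot be told apart.

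The other Fabp1 probe set (1417556_at) read 491 and 315 in hypomorph and 62.2 and 62.1 in wildtype. The wildtype arrays were nearly equal, whereas the hypomorph arrays differed from each other by 0.59 on the log2 scale, against a median of 0.15 over all tested probe sets. Its log2 difference of 2.18 (95% interval 1.72 to 2.63, adjusted p = 0.000297 in limma) overlapped that of the brighter probe set, and the ratio of means was 6.49. The 2 probe sets therefore gave similar sizes at different brightness.

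Fabp2, the intestinal member that binds long-chain fatty acids, read 7833 and 8308 in hypomorph and 7566 and 7661 in wildtype. The hypomorph arrays were both slightly higher, but the difference of 0.08 (95% interval -0.04 to 0.2) was not called (adjusted p = 0.422 in limma). Fabp6, which carries bile acids through ileal enterocytes, read 9919 and 10555 against 9769 and 9954. Here the groups overlapped, with a difference of 0.05 (95% interval -0.06 to 0.17, adjusted p = 0.6). The intervals of Fabp2 and Fabp6 lie far below that of Fabp1. Within arrays, Fabp1 changed by 2.32 more than Fabp2 and by 2.35 more than Fabp6 on the log2 scale. Each gave p = 0.333 in a two-sided exact permutation test, the smallest p that 2 against 2 arrays allow.

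The brightness of Fabp2 and Fabp6 bears on how much could be seen. Among the 349 other probe sets at least as bright as that of Fabp2, 0 were called higher and 2 lower, and the largest rise was 0.83. Among the 146 at least as bright as that of Fabp6, 0 were called in either direction and the differences ran from -0.19 to 0.18. The largest fall among the 349 was -0.38, so none of these probe sets showed a difference as large as that of Fabp1. The brightness of Fabp1 is shared or exceeded by 9651 other probe sets, of which 2.56% were called higher. Whether a change of Fabp2 or Fabp6 could be seen at this brightness was not tested.

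Fabp4, the fat cell member that carries fatty acids released from the lipid droplet, was called on 2 of its 4 probe sets. The brightest (1451263_a_at) read 7775 and 6305 in hypomorph and 3483 and 3326 in wildtype. The groups were well apart, at means of 7040 ± 1039 and 3404 ± 112 (SD, n = 2 each), a 2.07-fold ratio. The log2 difference was 1.03 (SE 0.09, 95% interval 0.83 to 1.24, adjusted p = 0.000216 in limma).

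A dimmer Fabp4 probe set (1417023_a_at) read 880 and 702 in hypomorph and 117 and 124 in wildtype. Its difference of 2.43 (95% interval 2.08 to 2.77, adjusted p = 1.84e-05 in limma) was the 11th largest of all probe sets tested, and its ratio of means was 6.57. The intervals of the 2 Fabp4 probe sets do not overlap, so the direction was shared but the size was not. Among 30 genes with 2 or more probe sets called higher, the brightest had a smaller difference than another called one in 20. The share expected if brightness played no part was not computed, so nothing is drawn from this count. At least as bright as 1451263_a_at were 944 other probe sets, of which 9 were called higher, with a largest rise of 1.35.

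The remaining Fabp4 probe sets were below the filter and were not tested. The first (1425809_at) read 50.9 and 26.1 in hypomorph against 23.8 and 17.1 in wildtype. The second (1424155_at) read 19.9 and 15.8 against 11.1 and 13.5. Both were higher on both hypomorph arrays, with log2 differences of 0.41 and 0.17 that the added 32 makes small.

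Fabp5, the epidermal member that also serves macrophages and endothelium, was higher on both hypomorph arrays with both probe sets but was not called. The brighter (1416021_a_at) read 2962 and 3431 against 2761 and 2548. Its log2 difference was 0.26 (95% interval 0.06 to 0.46, adjusted p = 0.14 in limma). The dimmer (1416022_at) read 455 and 413 against 305 and 310, with a difference of 0.46 (95% interval 0.15 to 0.76, adjusted p = 0.098). The difference was small beside that of Fabp4. Within arrays the brightest probe set of Fabp4 changed by 0.77 more than that of Fabp5 (p = 0.333, two-sided exact permutation test, again the smallest possible).

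Fabp3 and Fabp7 stayed near the floor of the arrays. The 2 probe sets of Fabp3 ranged from 9.72 to 33.7 in hypomorph and from 11.9 to 37.8 in wildtype, and the groups overlapped. Fabp7 read 14.6 and 27.6 against 8.23 and 14, so the hypomorph arrays were higher by a small margin. In a fit of all 45037 probe sets without a filter, 0 of the 5 dim Fabp probe sets were called in limma, where 0.406% of all were called higher and 0.266% lower. Their smallest adjusted p was 0.435. At these intensities a difference between the groups may not be detectable.

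**Figure D2:**
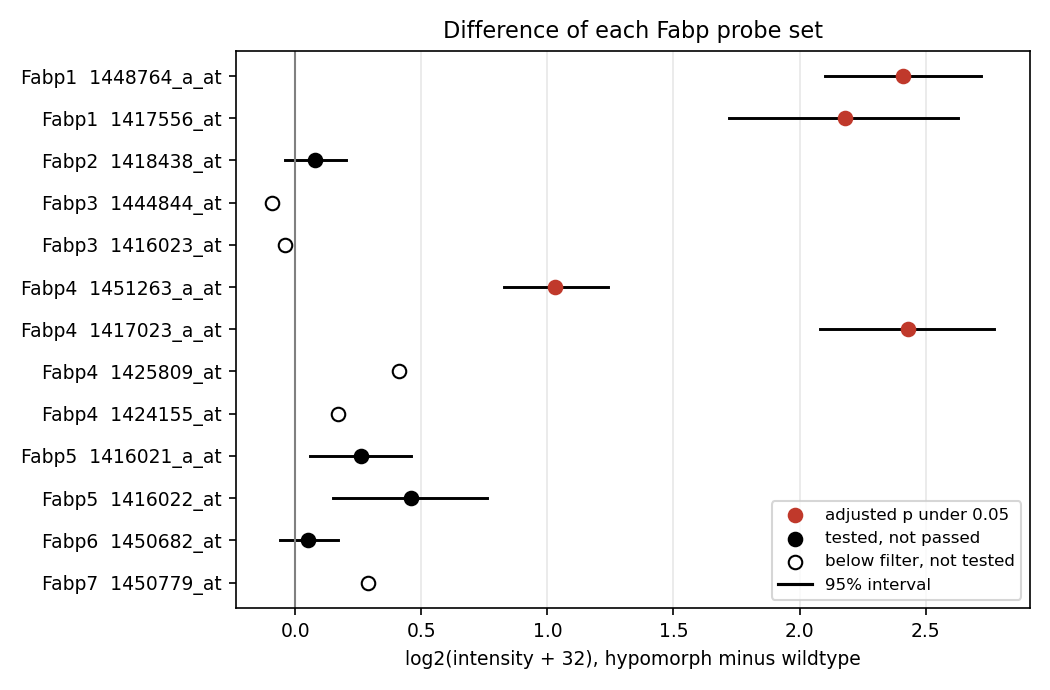
Log2 difference, hypomorph minus wildtype, of each Fabp probe set, with the 95% interval from limma where it was tested. The 4 red points, at 2.41 and 2.18 for Fabp1 and at 1.03 and 2.43 for Fabp4, are the called ones, and open points are probe sets below the filter.

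Fabp5, Pmp2, Fabp9, Fabp4 and Fabp12 follow each other without another protein-coding gene between them on chromosome 3 in the RefSeq gene table, which served here for gene order only. All belong to the family of intracellular lipid binding proteins. Fabp9, a testis member, read 17.9 and 20.3 in hypomorph and 23.3 and 16.9 in wildtype, and Fabp12 read 11.7 and 16.7 against 10.8 and 13.9. Pmp2, a myelin protein, read at most 4.86 on any array. These genes lie between or beside Fabp5 and Fabp4, yet all 3 were below the filter in both groups. Beyond the cluster, the neighbours differed by 0.37 (Pag1, next to Fabp5) and -0.12 (Impa1, next to Fabp12), and neither was called. On chromosome 6, Smyd1, next to Fabp1, read 1548 and 1882 against 968 and 740 (0.98, adjusted p = 0.00446 in limma), and Thnsl2, on the other side of Fabp1, was below the filter.

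Of the other lipid binding relatives, the retinol binding Rbp7 was the only tested gene, at 316 and 284 against 214 and 263 (log2 difference 0.3, adjusted p = 0.319 in limma). Crabp1, Crabp2 and Rbp2 were below the filter. Rbp2, the enterocyte retinol carrier, read between 6.32 and 9.77 on the 4 arrays. Rbp2 is also on the list of enterocyte markers.

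Genes that act with the Fabp proteins were taken from lists and represented by their brightest probe set, for which 2.53% of 11577 genes were called higher and 1.7% lower. With no adjustment, 1162 of these genes were higher and 1346 lower at a p under 0.05. Of 10 tested genes of fatty acid uptake and activation, 1 rose and 0 fell, and at an unadjusted p under 0.05 there were 3 higher and 1 lower (median log2 difference 0.09, against -0.02 over all genes tested). The riser was Cd36, a fatty acid receptor of the cell surface, at 837 and 765 against 234 and 218 (1.69, adjusted p = 8.39e-05 in limma). Its dimmer probe sets gave 1.04 and 0.85. Without hypomorph replicate 1 there were 2 risers in this list. Slc27a4, the main fatty acid transport protein of the small intestine, differed by 0.52 and was not called (adjusted p = 0.068).

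Downstream of the binding proteins, fatty acids are joined to glycerol again and exported as chylomicrons. Of 14 tested genes of this step, 8 rose, and 0 fell, also at an unadjusted p under 0.05 in limma (median 0.72). Apoa4, a chylomicron apolipoprotein, read 1813 and 1861 against 390 and 451 (2.05, with another probe set at 1.58). Mttp, which loads lipid onto apolipoprotein B, read 1276 and 1356 against 500 and 496 (1.35, with another probe set at 0.58). Dgat2, which makes triglycerides, differed by 1.23 and Apoc2, the cofactor of lipoprotein lipase, by 1.01. The 3 other probe sets of Apoa1 gave 1.14 to 1.18, against 0.85 for the brightest.

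For Fabp6, the partners are the genes of ileal bile acid handling. Of 8 tested, 3 rose and 0 fell (median 0.06), with 1 lower at an unadjusted p under 0.05 in limma. Slc51a, a subunit of the exporter that moves bile acids out of the enterocyte, read 525 and 567 against 288 and 288 (0.85, adjusted p = 0.00682). Slc51b, its partner subunit, read 618 and 595 against 407 and 349 (0.64), and the sterol transporter gene Abcg5 differed by 0.4. Only the call of Slc51a was kept without each array in turn, since the count was 1 without hypomorph replicate 1 and 1 without wildtype replicate 2. Without hypomorph replicate 2, 1 gene of the list was lower. Slc10a2, the importer of bile acids at the brush border, read 42.9 and 76.8 against 105 and 94.4 (-0.54, adjusted p = 0.171). Both subunits of the exporter thus rose while Fabp6, on its very bright probe set, was not called.

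Nuclear receptors and coactivators that act on Fabp genes were not called. Of 11 tested, 0 rose and 0 fell in limma, and at an unadjusted p under 0.05 there were 0 higher and 2 lower (median -0.09). The coactivator Ppargc1a read 466 and 380 against 584 and 642 (-0.51, adjusted p = 0.0781), and the enterocyte regulator Hnf4a read 7014 and 7232 against 7725 and 8257 (-0.16, adjusted p = 0.143). The receptors themselves differed by -0.13 (Pparg), -0.35 (Ppara) and 0.03 (Ppard), and none was called. The list of other known PPAR targets was a selection and does not stand for all of them. Genes that rose in other lists, such as Cd36 and Adipoq, were not on it. Of its 11 tested genes (median -0.05) 2 rose, Slc25a20 and Acadl by 0.39 each. The kinase gene Pdk4 fell, at 165 and 167 against 481 and 527 (-1.44, adjusted p = 0.00042 in limma). Leaving out hypomorph replicate 1, or either wildtype replicate, left 0 of these rises, and leaving out hypomorph replicate 2 left 1.

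**Figure D3:**
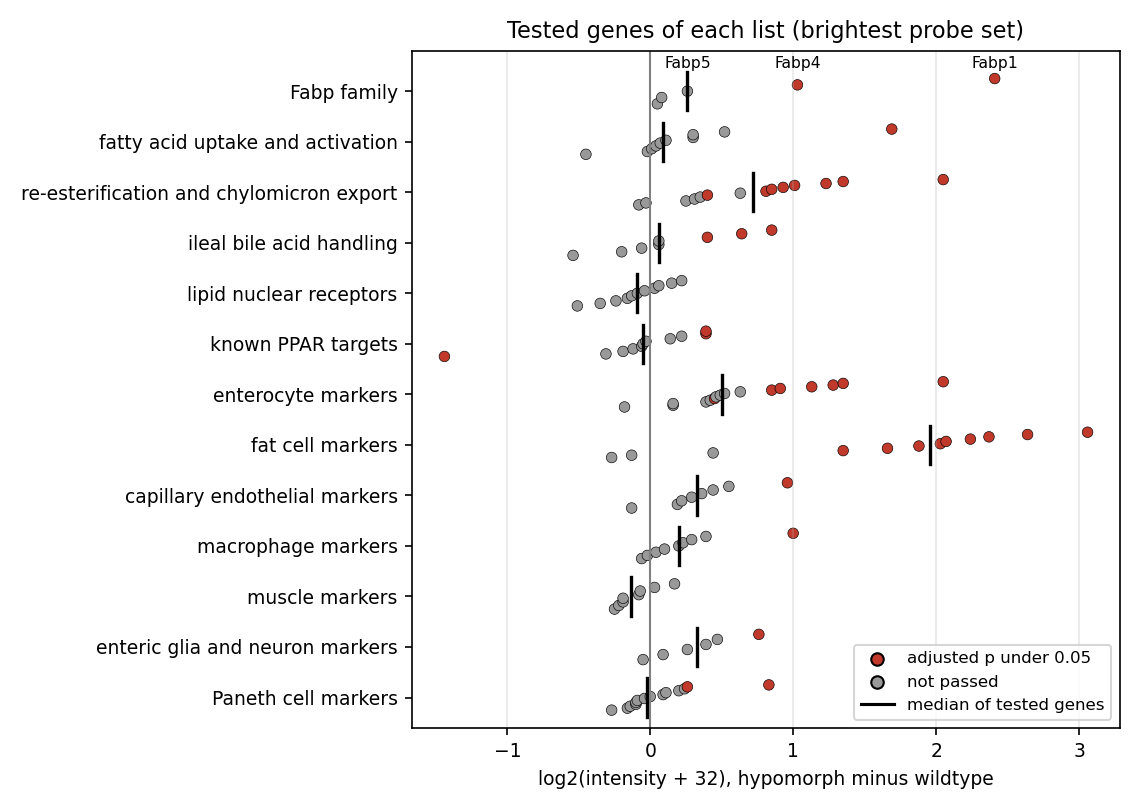
Log2 difference, hypomorph minus wildtype, of every tested gene of each list, with the list median as a bar. Red points passed the test, and the medians are 0.72 for chylomicron export, 0.51 for enterocyte markers and 1.95 for fat cell markers, against 0.26 for the 5 tested Fabp genes.

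Markers of the cell types that express Fabp genes moved as well. Of 16 tested enterocyte markers, 7 rose and 0 fell, and with an unadjusted p under 0.05 in limma 14 stood higher and 1 lower (median 0.51, and 0.46 over the 19 on the array). Beside Apoa4 and Mttp, the brush border phosphatase gene Alpi differed by 1.28 and the lactase gene Lct by 1.13. Lct (36.5 and 37.9) and the uncalled Slc15a1 (46.1 and 44.4) read under 47.7 in wildtype. Both passed the filter only through the hypomorph arrays. The summed intensity of the list ran from 34505 to 34731 in hypomorph and from 24522 to 25520 in wildtype. Slc5a1 (0.16, adjusted p = 0.218), Vil1 (0.16, adjusted p = 0.228) and Mgam (-0.18, adjusted p = 0.209), bright markers of the same cells, were not called, as Fabp2 was not. Of markers with intensities near that of Vil1, the keratin gene Krt20 rose, at 4139 and 4209 against 3253 and 2855 (0.45, adjusted p = 0.0137), as did Apoa1 (0.85, adjusted p = 0.000569). The call of Krt20 was lost without wildtype replicate 2. The part of enterocyte RNA in the rise of Fabp1 was not tested.

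Of 12 tested fat cell markers 9 rose, and 0 fell, also at an unadjusted p under 0.05 in limma (median 1.95, but 0.44 over the 19 on the array). The tested markers that were not called were Pnpla2 (0.44), Pparg (-0.13) and Acvr1c (-0.27). Scd1, a fatty acid desaturase, differed by 3.06, the lipogenic gene Thrsp by 2.64 (with another tested probe set at 0.7), the hormone gene Adipoq by 2.37 and the droplet protein gene Cidec by 2.24. Some markers passed the filter only through the hypomorph arrays, such as Cidec at 16.9 and 37.9 in wildtype. The summed intensity was 26375 and 27952 in hypomorph against 7797 and 8166 in wildtype, higher in hypomorph as Fabp4 was. No marker was listed at 0, but Ucp1, Cidea and Lipe stayed under 15 on all arrays.

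All 4 Fabp4 probe sets read higher on hypomorph replicate 1 than on hypomorph replicate 2. The gaps were 0.3, 0.31, 0.51 and 0.12 on the log2 scale from the brightest probe set to the dimmest. Between wildtype replicates 1 and 2 they were 0.07, -0.07, 0.19 and -0.08. On their brightest probe sets, 1 of the 12 tested fat cell markers, Cidec (282 against 209), was higher on hypomorph replicate 1 (median -0.08). Of the other cells that express Fabp4, 3 of 8 tested endothelial and 3 of 9 tested macrophage markers were higher on hypomorph replicate 1 (medians -0.03 and -0.07). Of all 11577 genes tested, 39.4% were (median -0.05). In wildtype, 4 of the 12 fat cell markers, 7 of the 8 endothelial and 5 of the 9 macrophage markers were higher on replicate 1, against 52.7% of all genes tested. Among dimmer probe sets of the called markers, 3 of Car3 also read higher on hypomorph replicate 1. They read 592 against 521, 153 against 122 and 57.9 against 46.5 on hypomorph replicate 2. Those of Lpl (258 against 267), Scd1 (724 against 754) and Thrsp (63.3 against 79.6 and 23.2 against 30.6) read lower on hypomorph replicate 1. Both Fabp1 probe sets were also higher on hypomorph replicate 1, by 0.17 and 0.59. The part of fat cell RNA in the rise of Fabp4 was not tested.

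Capillary endothelium and macrophages also express Fabp4 and Fabp5. At an unadjusted p under 0.05 in limma, 4 of 8 tested endothelial and 4 of 9 tested macrophage markers were higher and 0 lower. Of the endothelial markers 1 rose (median 0.32, and 0.2 over the 12 on the array). It was Gpihbp1, which anchors lipoprotein lipase, at 114 and 119 against 51.2 and 37.9 (0.96, adjusted p = 0.0145 in limma). Its wildtype mean of 44.6 was under 47.7, and it was not called in the fit without a filter (adjusted p = 0.0905). Leaving out wildtype replicate 2 gave a count of 0, and leaving out hypomorph replicate 2 or wildtype replicate 1 gave 2. Of 9 tested macrophage markers 1 rose (median 0.2), the scavenger receptor gene Cd163 at 2328 and 2358 against 1056 and 1267 (1, adjusted p = 0.000569), and 2 rose without hypomorph replicate 1. Summed intensities were 3681 to 4052 against 2764 to 3096 for endothelial and 18082 to 19186 against 16186 to 16713 for macrophage markers. Of these markers Pecam1, Tie1, Cd300lg and Cd68 were below the filter in both groups. The endothelial marker Emcn was also below it and was lower on both hypomorph arrays, at 4.6 and 14.7 against 34.5 and 15.8. What these cells contribute to Fabp4 or Fabp5 was not tested.

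For the dim members, of 8 tested muscle markers 0 rose and 0 fell, and at an unadjusted p under 0.05 in limma there were 0 higher and 1 lower (median -0.14). The smooth muscle actin gene Acta2 read 5269 and 5408 against 5712 and 6541. The cardiac and skeletal markers Myh6, Actc1 and Tnnt2, from the tissues where Fabp3 is abundant, were below the filter, Tnnt2 at 48.5 and 57.6 against 33.9 and 31.3. The muscle creatine kinase gene Ckm passed it, at 62.5 and 62 against 65.2 and 69.3 (-0.07, adjusted p = 0.845). Of 6 tested markers of enteric glia and neurons 1 rose, the neuropeptide gene Vip by 0.76, and 0 fell. The median was 0.32, but 0.02 over the 10 on the array. At an unadjusted p under 0.05 in limma, 3 were higher and 0 lower. Of those, the neuronal gene Nos1 read 39.4 and 37 in wildtype, under 47.7, against 50 and 82.9 in hypomorph. It thus passed the filter only through the hypomorph arrays. The glial genes Gfap and S100b were below the filter, as Fabp7 was, and so were the neuronal genes Uchl1 and Tubb3. Gfap was lower on both hypomorph arrays (20.6 and 23.8 against 33.7 and 32.4). So were Uchl1 (12.5 and 8.4 against 20.1 and 19.4) and Tubb3 (36.4 and 32.8 against 39.2 and 37.8), while S100b overlapped. The glial regulator Sox10 was just above the filter, at 53 and 47.9 against 51.5 and 40 (0.09, adjusted p = 0.819 in limma).

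Genes whose pattern over the 4 arrays was nearest to that of a called Fabp gene were found by Euclidean distance of centred log2 values among 11576 other genes. For Fabp1 they were Adipoq (distance 0.13), the haemoglobin binding gene Hp (0.27) and the acute phase gene Saa1 (0.3), whose probes can cross-hybridise with other Saa genes. Adipoq read 675 and 680 against 109 and 101. Fabp1 read higher on hypomorph replicate 1, whereas these 3 genes read higher on replicate 2. For Fabp4 they were Fbxo41 (0.1), Kctd16 (0.11) and the IgG receptor gene Fcgrt (0.15), all higher on hypomorph replicate 1. Fcgrt read 503 and 461 against 221 and 226. With 4 arrays in 2 groups, the difference between the groups dominates this distance, so it ranks genes mainly by the size of their rise.

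**Figure D4:**
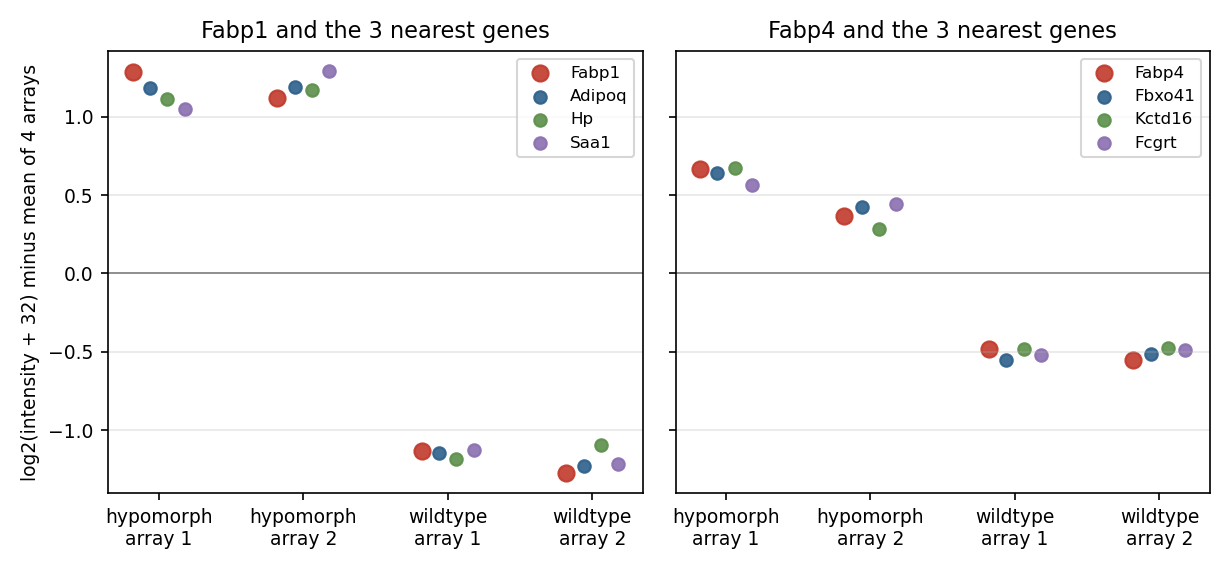
Log2(intensity + 32) minus the mean of the 4 arrays for Fabp1 and Fabp4 (brightest probe sets) and the 3 genes nearest to each; points of one array are set side by side. The genes nearest to Fabp1 lie within a distance of 0.3 and those nearest to Fabp4 within 0.15.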

How the data were processed

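Per the labels' protocols, the PicoPure kit served to extract total RNA from laser-captured cells, and RiboAmp Plus to amplify and biotin-label it. The authors deposited 1 linear intensity per probe set and array; background correction, summarisation and scaling are not stated there. Array medians ran from 47.2 to 49.5 and trimmed means differed by at most 1.02 times, so values were not normalised again. Of 45101 probe sets 64 controls were left out. Probe sets were named by the platform annotation, and 34945 carried 1 symbol. log2(intensity + 32) was fitted in limma 3.58.1 (R 4.3.3; lmFit, eBayes with an intensity trend) with the group as its only term, on 22519 probe sets with a mean log2 of 6.32 or more. The fit had 2 residual and 7.81 prior degrees of freedom, so few arrays limit the precision. The procedure was tested on simulated data. Named genes were all Fabp probe sets, up to 4 called members per list (otherwise the 2 with the smallest p), and the 3 genes nearest to each called member. Lyz1, Mmp7, Slc27a4, Slc10a2, the PPARs, other probe sets and further dim or uncalled markers were added after their values were seen. Members, lists and motifs were chosen with earlier results of these data known. Alternatives covered scaling, pseudocount, filter, variance prior, replicate block and each array left out.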

Additional observations from a re-analysis of the deposited data

How the results depend on the processing

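The count of Fabp probe sets called higher was 4 under the alternatives of scaling, pseudocount and variance prior, without a filter and without each array in turn, and 3 when only the brightest 25% of probe sets were tested, which leaves out the dimmer Fabp1 probe set. The count called lower was 0 under all 13 alternatives. Without each array in turn, the differences of Fabp1 ran from 1.88 to 2.49 and those of the called Fabp4 probe sets from 0.88 to 2.58. A pseudocount of 1, or one 4 times as large as 32, moved called and dim probe sets. The called values went to 2.64 and 1.46 for Fabp1 1417556_at, to 2.7 and 1.88 for Fabp4 1417023_a_at and to 2.62 and 1.94 for Fabp1 1448764_a_at, in that order, and stayed called. Dim values became 0.82 for 1425809_at, 0.5 for 1424155_at, 0.84 for Fabp7 and -0.14 for Fabp3 (1416023_at) at 1. Counts over all probe sets moved more than those of the family. The count higher was 459, and 183 without a filter, 192 without an intensity trend and 1489 with the replicate block, and from 317 to 706 without each array in turn. The count lower was 377, and 120, 131 and 1717 under the same settings, 244 in the brightest 25%, and from 178 to 942 without each array in turn. The cause was not tested. Deviations of same-numbered arrays correlated at 0.264, but with only 2 numbers the pairing is not established. With the replicate number as a block, both Fabp5 probe sets were also called (adjusted p = 0.0154 and 0.0166 in limma), which gave 6 higher. The same fit gave adjusted p = 2.55e-42 in limma for Fabp1 (1448764_a_at). The scatter of 4 arrays cannot bear a value that small, so the p-values and counts of the block fit are not relied on. Quantile normalisation and median centring shifted the median of all differences by -0.002 and -0.006.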
